A study of Rattus norvegicus with 12 samples.

Results

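The genes described here are nuclear genes whose protein products process, stabilise and translate the RNA of the mitochondrial genome. They were taken as the rows of the count table that carry 1 of 39 listed gene names, and 38 of the 39 names had a row among the 30560 genes of the table. Fastkd5 had no row under that name and was not analysed here. Tars2 (threonyl-tRNA synthetase of mitochondria) had 1 count over all 12 libraries and was not tested, so 37 genes entered the tests.

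The libraries came from red gastrocnemius (its inner portion; a muscle of the calf) of 6 male wild-type Wistar Kyoto rats that were 9 weeks old and received no treatment. Each animal gave 1 library of isolated mitochondria (10 ng of RNA) and 1 library of whole muscle (50 ng of RNA). A fresh piece of muscle served for the organelles, which were captured with antibodies and then exposed to RNase A, which digests RNA outside intact membranes, and to proteinase K; the piece for whole muscle was snap frozen. Both kinds of total RNA were depleted of ribosomal RNA before sequencing, and the question the series title poses is which nuclear-encoded RNAs are found in the mitochondrial preparation.

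As background, the mitochondrial genome is transcribed as long precursor RNAs, and the tRNAs that lie between its other genes are cut out by nucleases that act at each tRNA end. The freed mRNAs are polyadenylated and kept stable by RNA-binding proteins, or are degraded by an exonuclease and helicase pair. A dedicated set of initiation, elongation and release factors and a set of mitochondrial aminoacyl-tRNA synthetases then translate them on the mitochondrial ribosome. All of these proteins are encoded in the nucleus, made in the cytosol and imported, so the counts below are of the mRNAs of the factors and not of the proteins or of their substrates.

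The mitochondria libraries held 720111 to 1785865 counts, against 24309444 to 32055355 counts in whole muscle. Genes of the mitochondrial genome took 12.9% to 51.5% of the counts in mitochondria and 26.4% to 35.9% in whole muscle, so the groups overlapped in this share. Between 27803 and 28708 genes had at least 1 count in a mitochondria library, against 16931 to 17776 in a whole muscle library. Olfactory receptor genes, of which 998 of 1115 had no count in whole muscle, summed to 13174 to 14442 CPM (counts per 1000000 counts, here over nuclear genes) in mitochondria and to 9.88 to 13.7 CPM in whole muscle. Vomeronasal receptor genes summed to 2817 to 3112 CPM on the same base in mitochondria, against 0.226 to 0.859 CPM in whole muscle.

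Markers of muscle fibres (Acta1, Ckm, Myh4, Myh7, Ttn and Tnnt3) were all lower in mitochondria, with a summed level of 688 to 1451 TMM-scaled CPM (defined below), against 271426 to 440089 CPM in whole muscle. All marker lists were chosen with earlier results of these data known. The summed level of 4 endothelial markers was 104 to 117 CPM in mitochondria and 594 to 1007 CPM in whole muscle, with all 4 lower in mitochondria. Leukocyte markers summed to 73.8 to 107 CPM in mitochondria and 41.5 to 63.0 CPM in whole muscle, with 3 of 4 higher, and 3 adipocyte markers, all higher, summed to 30.9 to 36.5 CPM in mitochondria and 0.277 to 8.40 CPM in whole muscle. Schwann cell markers (2 of 3 lower) summed to 47.6 to 65.6 CPM in mitochondria and 41.9 to 270 CPM in whole muscle, and smooth muscle markers (2 lower, 1 higher) to 67.7 to 87.8 CPM in mitochondria and 296 to 520 CPM in whole muscle. Of 3 red cell markers 1 was in the table, Alas2, at 4.10 to 8.15 CPM in mitochondria and 6.38 to 12.0 CPM in whole muscle. None of the listed cell type markers was at 0 in either group. The part of these differences in the results below was not tested. The mitochondria libraries come from captured organelles, so these sums are not read as numbers of cells or as RNA per cell.

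Across the 37 genes, transcripts of this machinery were mostly scarcer in mitochondria than in whole muscle when libraries were scaled by the trimmed mean of M values (TMM). TMM uses a trimmed mean of log ratios between libraries. It did not bring the median gene to 0 here, since the median log2 difference of all genes tested was 2.51. In edgeR's quasi-likelihood test over 24679 genes with Benjamini-Hochberg adjustment and a threshold of 0.05, 26 of the 37 were lower (70.3%), 3 were higher (8.11%) and 8 did not pass. Over all genes tested, 30.3% were lower and 63% were higher. Among the 13040 nuclear genes that averaged at least 1 CPM in whole muscle, a floor chosen with the data known and one that every tested member passes, 57.2% were lower and 30.2% were higher. The median log2 difference, mitochondria over whole muscle, was -1.05 for the 37 genes, 2.51 for all genes tested and -0.69 for the 13040 muscle-expressed genes, whose middle 50% spanned -1.97 to 0.71. All 37 lay below the median of all genes, but 22 lay below and 15 above the median of the muscle-expressed genes.

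The direction of these calls depended on the scaling of the libraries. With total counts in place of TMM, the median of all genes moved up by 2.10 on the log2 scale, and 26 of the 37 genes were then higher and 5 lower in mitochondria, against 84.3% higher and 9.03% lower of all genes tested. With counts of the mitochondrial genome as the library size, 21 were higher and 2 lower, against 80.9% higher and 4.34% lower of 24654 genes tested. DESeq2 gave 7 higher and 23 lower, against 66.4% higher and 26.4% lower of all genes, and RLE size factors gave the same counts, against 66.5% higher and 26.6% lower. With nuclear counts thinned to equal depth, 12 of 34 tested were higher and 14 lower, against 58.7% higher and 27.8% lower of 14987 genes. The log2 difference of their median from that of all genes was -3.56 with TMM, -3.54 with total counts and -3.67 with mitochondrial genome counts. These scalings shift all genes by about the same amount, so the difference could hardly move and its agreement is no check. The difference was -4.64 without the filter on low counts and -1.21 with nuclear counts thinned to equal depth, settings that change which genes are tested. With TMM the medians of the 37 genes and of the muscle-expressed genes, -1.05 and -0.69, lay closer together. That comparison was not repeated under the other settings. After thinning the median of all genes was 1.12, and 6 synthetases, Cars2 (2.21), Pars2 (2.10), Wars2 (1.79), Vars2 (1.31), Ears2 (1.30) and Rars2 (1.19), lay above it. Every level below is a TMM-scaled CPM, and every "higher" or "lower" is relative to TMM scaling unless another is named. Calls with total counts given below for a role or list are to be read against the 84.3% higher and 9.03% lower of all genes.

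**Figure D1:**
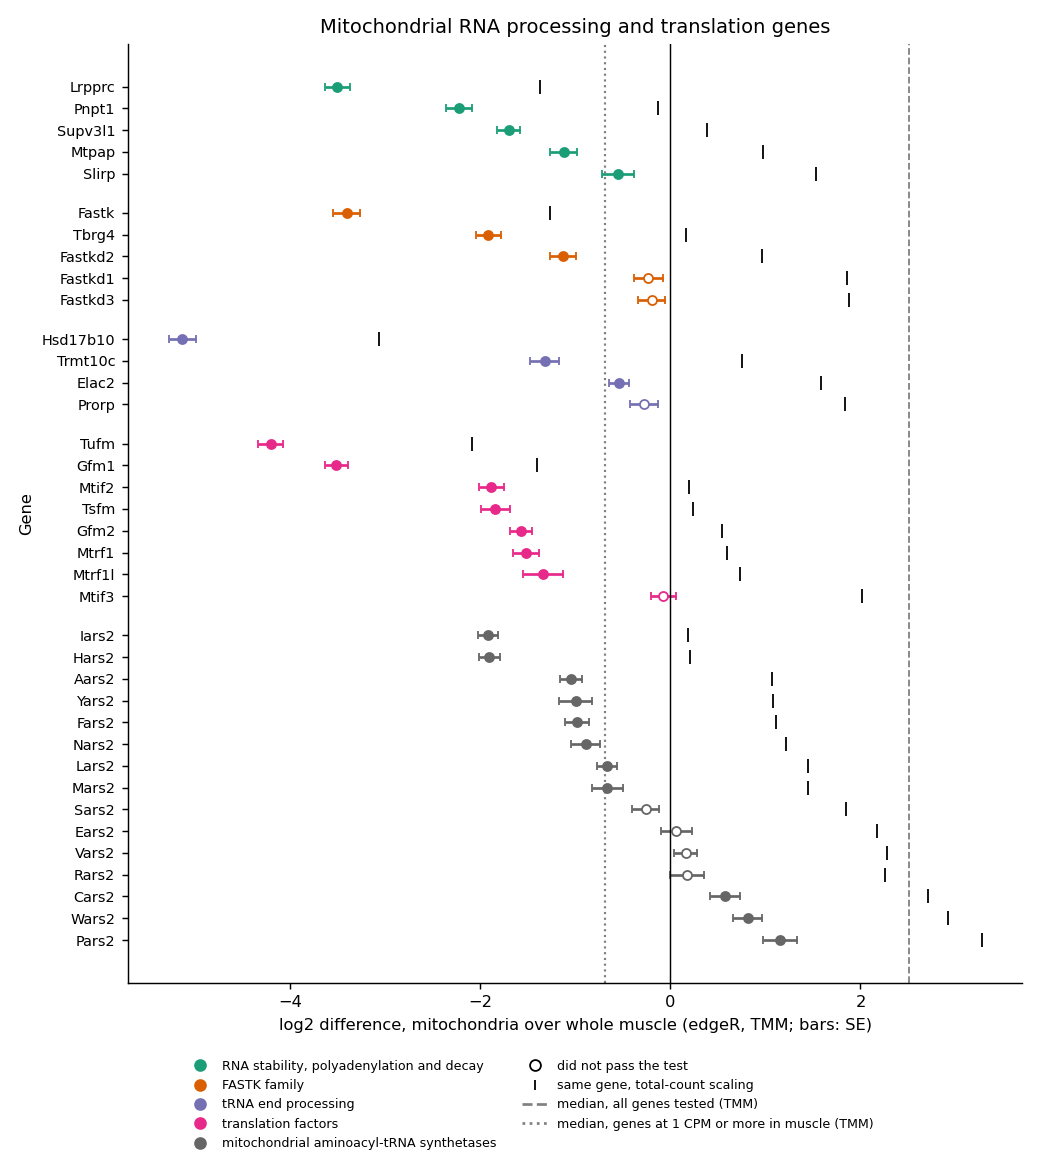
Log2 difference, mitochondria over whole muscle, of each of the 37 tested genes grouped by role (points with the standard error from edgeR, open where the test was not passed; black ticks give the same gene with total-count scaling), with vertical lines at the medians of all genes tested and of muscle-expressed genes. Hsd17b10 lies farthest to the left at -5.14 and Pars2 farthest to the right at 1.15, and no TMM point reaches the median of all genes, 2.51.

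The genes at the ends of this range were Hsd17b10, the lowest, and Pars2 and Wars2, the highest, and their upstream sequence is given here because they mark the extremes of the set. The 250 bases upstream of each annotated start were taken from RefSeq on the GRCr8 assembly, all on the plus strand: chr5:126662669-126662918 for Pars2, chr2:189150111-189150360 for Wars2 and chrX:24568301-24568550 for Hsd17b10. Capitals mark matches, on either strand, to a motif of NRF1 (GCGCA and GCGC, 1 base of any kind apart), a factor known for driving nuclear genes of mitochondrial proteins, or to an ETS-type motif (CCGGAAG).
Pars2: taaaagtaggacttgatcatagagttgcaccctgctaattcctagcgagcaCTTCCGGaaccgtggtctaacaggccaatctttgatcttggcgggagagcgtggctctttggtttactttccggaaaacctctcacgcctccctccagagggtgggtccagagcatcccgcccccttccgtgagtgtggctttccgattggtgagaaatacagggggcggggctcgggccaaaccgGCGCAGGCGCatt
Wars2: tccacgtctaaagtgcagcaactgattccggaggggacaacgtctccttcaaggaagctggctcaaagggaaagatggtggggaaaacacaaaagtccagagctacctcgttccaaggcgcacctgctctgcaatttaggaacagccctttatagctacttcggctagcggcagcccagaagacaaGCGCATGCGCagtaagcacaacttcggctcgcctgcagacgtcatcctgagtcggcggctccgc
Hsd17b10: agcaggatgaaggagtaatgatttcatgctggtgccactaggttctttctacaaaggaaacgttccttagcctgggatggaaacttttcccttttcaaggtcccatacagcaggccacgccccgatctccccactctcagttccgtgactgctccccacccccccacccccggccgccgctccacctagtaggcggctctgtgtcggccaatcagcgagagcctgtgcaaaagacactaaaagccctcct
Pars2 held a match to both motifs, Wars2 to the NRF1 motif, and the Hsd17b10 window held neither sequence.

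Of 35 genes of the set with a promoter entry, 3 (8.57%) held the NRF1 motif, namely Fastkd3, Pars2 and Wars2, against 4.30% of 27457 genes with an entry and 5.58% of 19005 protein-coding genes. The ETS-type motif was present upstream of 10 of the 35 (28.6%), which were Cars2, Fastk, Hars2, Iars2, Mtif2, Mtrf1l, Pars2, Rars2, Sars2 and Slirp, against 8.11% of all genes and 9.81% of protein-coding genes. An E-box (CACGTG) stood upstream of Slirp alone (2.86%), against 6.18% of all genes. These motifs do not overlap one another in the printed windows, and the GC content of the windows had a median of 56.0% for the set and 51.2% for all genes. The ETS-type motif was found among genes at both ends of the range, in Fastk at a log2 difference of -3.41 and in Pars2 at 1.15.

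The factors that hold, polyadenylate and degrade mitochondrial RNA were all lower in mitochondria, 5 of 5 (against 57.2% of muscle-expressed genes) with a median log2 difference of -1.70, although with total counts 3 were higher and 1 lower (median 0.39) and with DESeq2 the call for Slirp was lost. Lrpprc (ENSRNOG00000005877), a pentatricopeptide repeat protein that keeps mitochondrial mRNAs stable, had 20.4, 28.9 and 34.1 CPM as the lowest, median and highest library in mitochondria, against 265, 321 and 388 CPM in whole muscle. The groups did not overlap, and the mean in mitochondria was 11.3-fold lower (log2 difference -3.50 ± 0.13 SE, adjusted p = 2.69e-21).

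Slirp, the RNA-binding partner of Lrpprc, stood apart from it. Its level in mitochondria was 5.93 to 10.6 CPM (median 7.82), against 10.5 to 13.9 CPM (median 11.7) in whole muscle. The groups overlapped slightly, and the fall was small, 1.47-fold (log2 -0.55 ± 0.16, adjusted p = 0.00234), though lower in mitochondria in 6 of 6 animals. The call was lost with DESeq2 (log2 -0.18, adjusted p = 0.302) and with RLE size factors (adjusted p = 0.275).

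Pnpt1 (polynucleotide phosphorylase) and Supv3l1 (an RNA helicase) form the enzyme complex that degrades mitochondrial RNA. Pnpt1 lay at 6.67 to 9.49 CPM (median 8.19) in mitochondria, against 32.5 to 43.4 CPM (median 40.1) in whole muscle, 4.69-fold lower (log2 -2.22 ± 0.14, adjusted p = 7.04e-16). Supv3l1 lay at 13.5 to 22.3 CPM (median 17.2) in mitochondria and 47.9 to 64.8 CPM (median 57.4) in whole muscle, 3.25-fold lower (log2 -1.70 ± 0.12, adjusted p = 4.88e-14). In neither gene did the groups overlap. Mtpap, the poly(A) polymerase of mitochondria, had 6.97 to 12.4 CPM in mitochondria and 19.8 to 24.1 CPM in whole muscle (log2 -1.12 ± 0.14, adjusted p = 1.44e-08), again with no overlap.

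Of the FASTK family, RNA-binding proteins that act on single mitochondrial transcripts or groups of them, 3 of 5 were lower and 2 did not pass (median -1.13), while with total counts 3 were higher and 1 lower (median 0.96). The count of 3 in 5 is about the 57.2% of muscle-expressed genes that were lower. Fastk (ENSRNOG00000011667), the founding member, had 10.2, 11.04 and 19.3 CPM as the lowest, median and highest library in mitochondria, against 121, 141 and 155 CPM in whole muscle. It did not overlap between groups and was 10.3-fold lower (log2 -3.41 ± 0.14, adjusted p = 6.27e-20). Tbrg4, also called Fastkd4, had 9.85 to 22.2 CPM (median 14.6) in mitochondria, against 51.3 to 63.5 CPM (median 57.4) in whole muscle (log2 -1.92 ± 0.13, adjusted p = 1.81e-14).

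The remaining family members differed less. Fastkd2, known for its part in assembly of the large ribosomal subunit of mitochondria, had 7.78 to 12.4 CPM in mitochondria and 18.2 to 22.8 CPM in whole muscle, with no overlap (log2 -1.13 ± 0.14, adjusted p = 9.01e-09). Fastkd1 had 11.9 to 18.9 CPM in mitochondria and 13.7 to 22.2 CPM in whole muscle, and Fastkd3 had 8.81 to 13.7 CPM in mitochondria and 10.7 to 13.8 CPM in whole muscle. Both overlapped between groups and did not pass, with log2 differences of -0.23 ± 0.15 (adjusted p = 0.141) and -0.20 ± 0.15 (adjusted p = 0.192). Fastk and Fastkd3 therefore lay more than 3 log2 units apart within 1 family.

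The enzymes that cut tRNAs out of the precursor showed the widest spread of the set, with 3 of 4 lower (against 57.2% of muscle-expressed genes), 1 not past the test and a median of -0.93, while with total counts 3 were higher and 1 lower (median 1.17). Hsd17b10 (ENSRNOG00000003049), a dehydrogenase of amino acid and lipid breakdown that is also a subunit of mitochondrial RNase P, had 2.18, 3.10 and 4.48 CPM as the lowest, median and highest library in mitochondria, against 107, 112 and 122 CPM in whole muscle. These levels rested on 5 to 15 counts in each mitochondria library. Their mean, 3.16 CPM, was no higher than that of the average olfactory receptor gene in those libraries on the same scale. The groups were far apart, and the gene was 36.0-fold lower in mitochondria (log2 -5.14 ± 0.14, adjusted p = 6.16e-24), below all but 1.25% of the genes tested.

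The other RNase P subunits differed less. Trmt10c, the tRNA methyltransferase subunit, had 6.06 to 10.5 CPM (median 7.69) in mitochondria and 17.8 to 25.2 CPM (median 19.9) in whole muscle, with no overlap (log2 -1.32 ± 0.15, adjusted p = 1.93e-09). Prorp, the nuclease subunit that cuts at the leading end of the tRNA, had 9.57 to 15.4 CPM (median 11.04) in mitochondria and 11.3 to 15 CPM (median 14.2) in whole muscle. Its groups overlapped and it did not pass (log2 -0.28 ± 0.15, adjusted p = 0.0712). Elac2, the RNase Z that cuts the trailing end, had 25.8 to 35.6 CPM (median 30.5) in mitochondria and 39.0 to 47.4 CPM (median 45.1) in whole muscle, a 1.45-fold fall with no overlap (log2 -0.54 ± 0.11, adjusted p = 2.19e-05). With DESeq2 it no longer passed (log2 -0.18, adjusted p = 0.0883).

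Among the translation factors 7 of 8 (87.5%, against 57.2% of muscle-expressed genes) were lower in mitochondria and 1 did not pass (median -1.71), whereas with total counts 4 were higher and 2 lower (median 0.39). Tufm (ENSRNOG00000018604), the elongation factor Tu that brings aminoacyl-tRNA to the ribosome, had 7.04, 8.43 and 12.7 CPM as the lowest, median and highest library in mitochondria, against 150, 166 and 180 CPM in whole muscle. It was 18.3-fold lower with no overlap (log2 -4.21 ± 0.13, adjusted p = 6.32e-23). Tsfm, which recharges Tufm with GTP, had 4.51 to 7.18 CPM (median 6.58) in mitochondria and 19.0 to 26.5 CPM (median 23.3) in whole muscle (log2 -1.84 ± 0.15, adjusted p = 1.23e-12).

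Gfm1 (ENSRNOG00000012873) and Gfm2 are related elongation factors of the G type, of which Gfm1 moves the ribosome along the mRNA and Gfm2 takes the ribosome apart after termination. Gfm1 had 11.1 to 19.3 CPM (median 13.7) in mitochondria, against 143 to 182 CPM (median 163) in whole muscle, 11.3-fold lower (log2 -3.52 ± 0.12, adjusted p = 8.62e-22). Gfm2 had 20.02 to 28.8 CPM (median 26.9) in mitochondria, against 64.8 to 93.1 CPM (median 75.3) in whole muscle, 2.97-fold lower (log2 -1.57 ± 0.12, adjusted p = 1.27e-13). In neither gene did a mitochondria library reach a whole muscle library, and the difference was larger for Gfm1.

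Of the initiation factors, Mtif2 was lower and Mtif3 did not pass. Mtif2, which places the initiator tRNA, had 8.26 to 14.9 CPM (median 11.1) in mitochondria and 36.7 to 47.5 CPM (median 41.3) in whole muscle (log2 -1.88 ± 0.13, adjusted p = 2.67e-14). Mtif3, which keeps the ribosomal subunits apart before initiation, had 12.7 to 22.2 CPM (median 19.6) in mitochondria and 17.1 to 23.3 CPM (median 20.2) in whole muscle, and it overlapped and did not pass (log2 -0.08 ± 0.13, adjusted p = 0.574), whereas with DESeq2 it was higher (log2 0.29, adjusted p = 0.0362). Of the release factor genes, Mtrf1 had 7.78 to 13.5 CPM in mitochondria and 25.6 to 29.7 CPM in whole muscle (log2 -1.52 ± 0.14), and Mtrf1l had 2.87 to 6.67 CPM in mitochondria and 7.59 to 13.8 CPM in whole muscle (log2 -1.34 ± 0.21). Both fell with no overlap, at adjusted p = 1.00e-11 for Mtrf1 and 7.89e-07 for Mtrf1l.

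**Figure D2:**
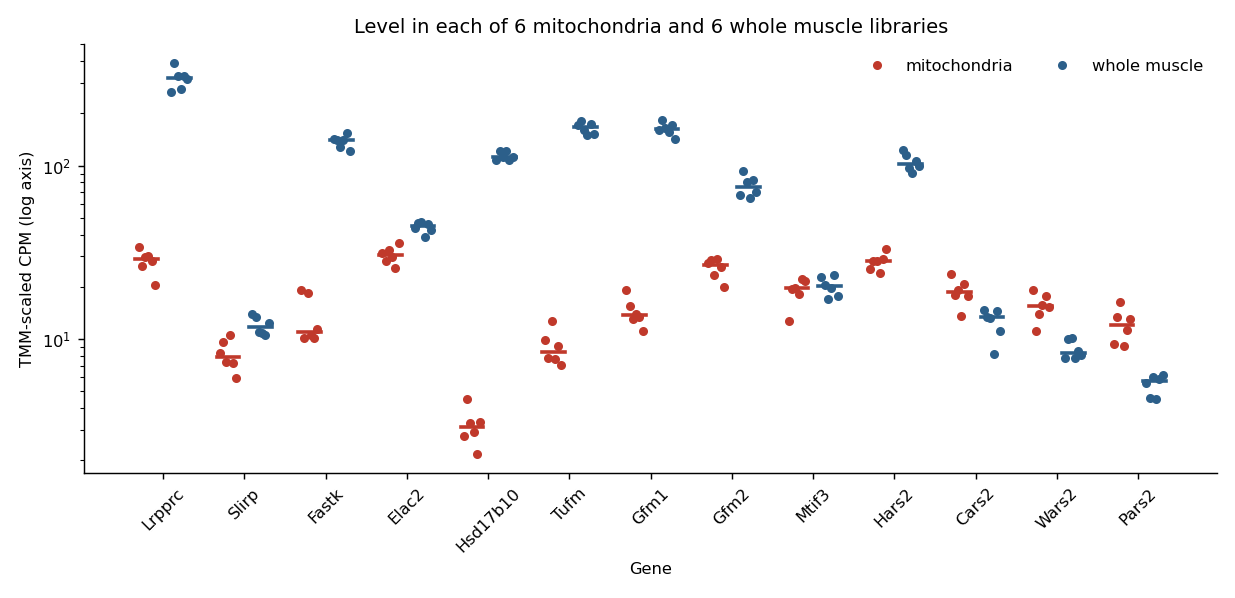
TMM-scaled CPM on a log axis of selected genes in every library, with mitochondria left of whole muscle, 1 point per library and a line at each median. Hsd17b10, Tufm, Gfm1, Lrpprc and Fastk are separated by wide gaps, whereas Pars2 and Wars2 are the genes whose mitochondria libraries all lie above the whole muscle libraries.

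The mitochondrial aminoacyl-tRNA synthetases, which charge tRNAs with their amino acids, were the role in which genes passed in both directions: of 15 tested, 8 were lower, 3 were higher and 4 did not pass (median -0.66), while with total counts 13 were higher and 2 did not pass (median 1.45). The share lower, 53.3%, was close to the 57.2% of muscle-expressed genes, and the counts with total counts are to be read against the 84.3% of all genes that were then higher. Pars2 (ENSRNOG00000007327, prolyl-tRNA synthetase) had 9.13, 12.1 and 16.4 CPM as the lowest, median and highest library in mitochondria, against 4.49, 5.71 and 6.24 CPM in whole muscle. Wars2 (ENSRNOG00000019508, tryptophanyl-tRNA synthetase) had 11.1, 15.4 and 19.3 CPM in mitochondria, against 7.72, 8.34 and 10.1 CPM in whole muscle. Neither gene overlapped between groups, and both were higher in mitochondria in 6 of 6 animals, Pars2 by 2.21-fold (log2 1.15 ± 0.17, adjusted p = 3.61e-07) and Wars2 by 1.78-fold (log2 0.81 ± 0.15, adjusted p = 1.16e-05).

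Cars2 (cysteinyl-tRNA synthetase) was the third that rose, with 13.5 to 23.7 CPM (median 18.6) in mitochondria and 8.16 to 14.6 CPM (median 13.3) in whole muscle. The groups overlapped, but the level was higher in mitochondria in 6 of 6 animals (log2 0.57 ± 0.15, adjusted p = 0.000943). All 3 remained higher and past the threshold under every scaling, filter and omitted library tried. With TMM their rise was below the median of all genes, with Pars2 above 42.8% of the genes tested, Wars2 above 40.6% and Cars2 above 38.7%, whereas after thinning all 3 lay above that median.

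The synthetases with the highest levels in whole muscle were lower in mitochondria. Iars2 (isoleucyl-tRNA synthetase), the lowest of the role, had 20.8 to 29.7 CPM (median 25.1) in mitochondria and 84.4 to 104 CPM (median 97.0) in whole muscle (log2 -1.92 ± 0.11, adjusted p = 7.64e-17). Hars2 (histidyl-tRNA synthetase) had 24.1 to 33.0 CPM (median 28.2) in mitochondria and 90.5 to 123 CPM (median 103) in whole muscle (log2 -1.91 ± 0.11, adjusted p = 2.48e-16). Aars2 (alanyl-tRNA synthetase) had 20.03 to 28.7 CPM (median 27.3) in mitochondria and 44.6 to 65.6 CPM (median 53.8) in whole muscle (log2 -1.05 ± 0.12, adjusted p = 9.62e-10). None of these 3 overlapped between groups.

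The other 5 that fell were the synthetases for tyrosine, phenylalanine, asparagine, leucine and methionine. Their log2 differences were -0.998 ± 0.177 for Yars2, -0.98 ± 0.13 for Fars2, -0.89 ± 0.15 for Nars2, -0.67 ± 0.11 for Lars2 and -0.66 ± 0.17 for Mars2, of which Mars2 alone overlapped between groups and lost its call with DESeq2 (log2 -0.30, adjusted p = 0.115). The 4 that did not pass were those for serine, glutamate, arginine and valine, with log2 differences of -0.26 ± 0.14 for Sars2 (adjusted p = 0.0751), 0.06 ± 0.16 for Ears2 (adjusted p = 0.720), 0.17 ± 0.18 for Rars2 (adjusted p = 0.344) and 0.16 ± 0.12 for Vars2 (adjusted p = 0.200). With DESeq2 3 of these 4 passed as higher, namely Vars2 (0.53, adjusted p = 4.95e-05), Rars2 (0.54, adjusted p = 0.00759) and Ears2 (0.43, adjusted p = 0.0162). Over the whole set, 24 of 37 genes were lower and 2 higher with no overlap between groups. For comparison, 26.9% of nuclear genes tested were lower and 59.4% higher without overlap, and 50.8% and 24.1% of the muscle-expressed genes were lower and higher without overlap.

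Levels within the set lay closer together in mitochondria than in whole muscle. The same spread was not computed for other genes, so it cannot be called a trait of this set. The highest mean of the 37 genes was 9.67 times the lowest in mitochondria, against 58.0 times in whole muscle, and the SD across genes of the log2 level was 0.79 in mitochondria and 1.42 in whole muscle. Lrpprc, Tufm and Gfm1 together took 6.92% to 11.1% of the counts of the set in mitochondria, against 33.0% to 36.1% in whole muscle. The levels of the 2 groups were only loosely related across the 37 genes (Pearson's r 0.32, Spearman's rho 0.36). These are descriptions across genes, which share libraries and depth and are not independent replicates, and transcript length was not available to correct for.

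The same spread can be read by level. The 12 genes highest in whole muscle had a median log2 difference of -1.92, the middle 13 had -1.12 and the lowest 12 had -0.23. Spearman's rho between the log2 difference and the whole muscle level was -0.81 across the 37 genes, a description in which both measures share the whole muscle value. This trend with level was not computed for other genes either. As a sum, the 38 genes took 0.166% to 0.180% of nuclear counts in mitochondria and 0.121% to 0.144% in whole muscle, so the summed share was higher in mitochondria. This share is over nuclear counts and the 26 lower calls are on the TMM scale, so the sum is not to be set against those calls.

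**Figure D3:**
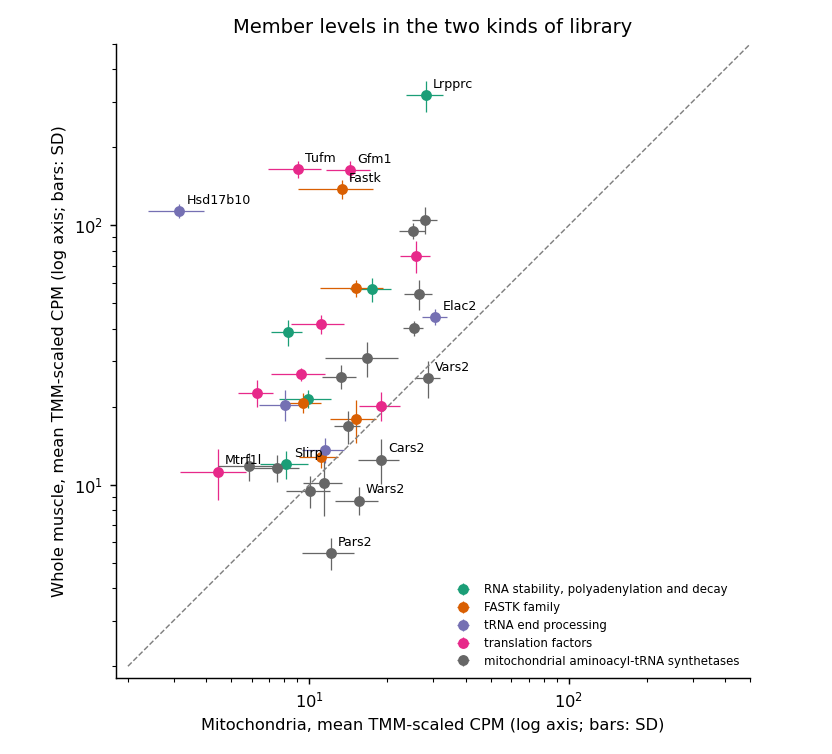
Mean TMM-scaled CPM of each tested gene in mitochondria (x axis, log) against whole muscle (y axis, log), coloured by role, with bars of 1 SD over 6 libraries and a dashed line of equal levels. The points span 9.67-fold along the mitochondria axis and 58.0-fold along the whole muscle axis.

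Ratios of 2 genes counted in the same library do not depend on the scaling between libraries, and several of them differed between the groups by more than the spread of the libraries. They are ratios of counts, not corrected for transcript length, so only their change between groups is read. No share without overlap was computed over other gene pairs. Of single nuclear genes tested, 59.4% were higher and 26.9% lower in mitochondria without overlap. The log2 ratio of Lrpprc to its partner Slirp was 1.45 to 2.01 (median 1.84) in mitochondria and 4.24 to 4.96 (median 4.75) in whole muscle, that is 3.40 Lrpprc counts per Slirp count in mitochondria and 26.2 in whole muscle. Within RNase P, the log2 ratio of Trmt10c to Hsd17b10 was 0.83 to 2.18 (median 1.17) in mitochondria and -2.67 to -2.27 (median -2.51) in whole muscle. The ratio thus lay above 0 in every mitochondria library and below 0 in every whole muscle library. The ratio of Prorp to Trmt10c moved less, with -0.10 to 1.31 (median 0.42) in mitochondria and -0.81 to -0.24 (median -0.63) in whole muscle, and the groups did not overlap.

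Elongation partners also changed in proportion. There were 1.41 Tufm counts per Tsfm count in mitochondria and 7.29 in whole muscle, with log2 ratios of 0.11 to 1.45 (median 0.35) in mitochondria and 2.60 to 2.998 (median 2.89) in whole muscle. The log2 ratio of Gfm1 to Gfm2 was -1.05 to -0.51 (median -0.85) in mitochondria and 0.97 to 1.26 (median 1.05) in whole muscle, and that of Mtif2 to Mtif3 was -1.17 to -0.38 (median -0.81) in mitochondria and 0.80 to 1.31 (median 1.05) in whole muscle. Both ratios were below 0 in every mitochondria library and above 0 in every whole muscle library. Pnpt1 to Supv3l1 and Mtrf1 to Mtrf1l overlapped between groups, with mean differences in the log2 ratio of -0.50 and -0.22.

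**Figure D4:**
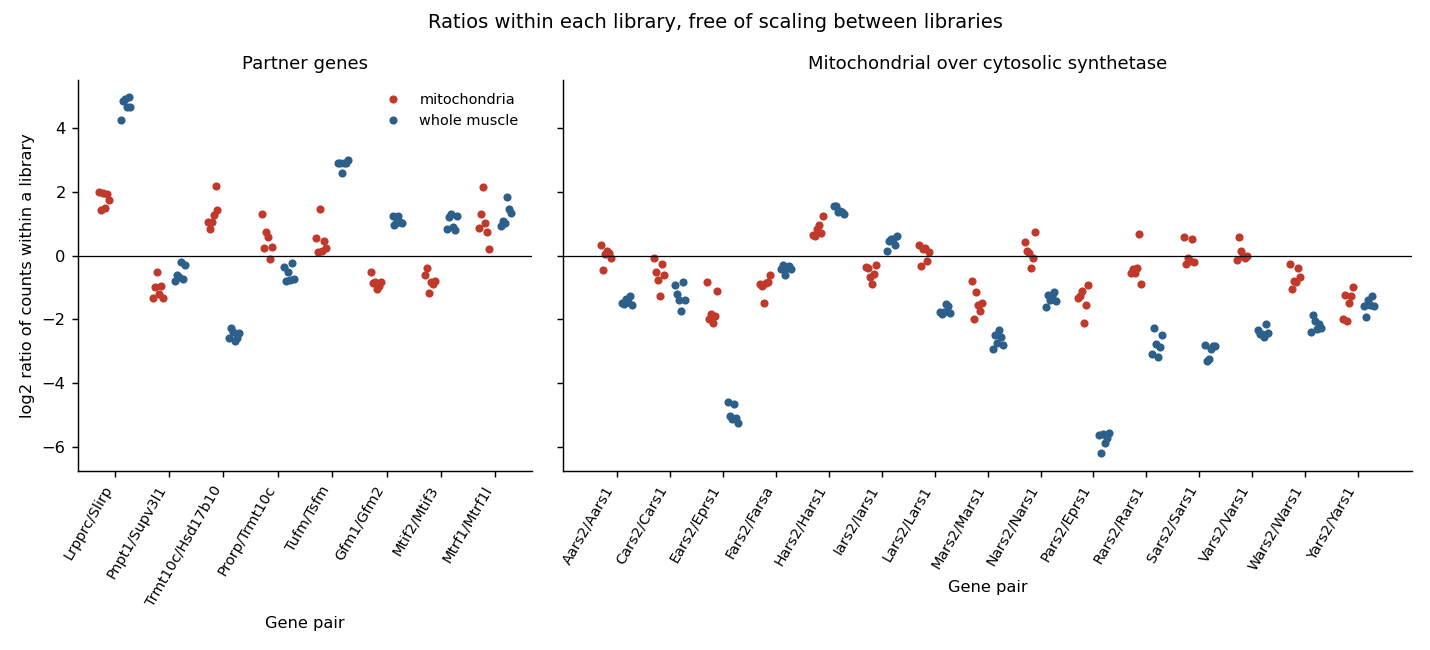
Log2 ratio of counts (with 0.5 added) of paired genes in each library, mitochondria and whole muscle side by side, 1 point per library. The Trmt10c to Hsd17b10 ratio lies above 0 in all 6 mitochondria libraries and below 0 in all 6 whole muscle libraries, and the Lrpprc to Slirp ratio is lower in mitochondria.

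Each mitochondrial synthetase was also set against the cytosolic enzyme for the same amino acid in the same library, in 15 pairs. The difference in the log2 ratio, mitochondria minus whole muscle, had a median of 1.505 over the pairs. It was largest for Pars2 and Ears2, both set against Eprs1, which charges glutamate and proline in the cytosol, at 4.38 and 3.33. Sars2 (3.05), Vars2 (2.48), Rars2 (2.42), Lars2 (1.77), Nars2 (1.51), Wars2 (1.505), Aars2 (1.45) and Mars2 (1.19) also shifted toward the mitochondrial enzyme with no overlap between groups. These shifts are not rises of the mitochondrial genes. Of these genes Wars2 alone was higher on the TMM scale. Lars2, Nars2, Aars2 and Mars2 were lower, and Sars2, Vars2 and Rars2 did not pass. Their cytosolic partners were all lower, at log2 differences from -3.26 for Sars1 to -0.68 for Wars1. As for the partner pairs, no share without overlap was computed over other gene pairs.

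A shift the other way was seen in Iars2 and Hars2. The log2 ratio of Iars2 to Iars1 was -0.90 to -0.31 (median -0.48) in mitochondria and 0.14 to 0.62 (median 0.49) in whole muscle, and that of Hars2 to Hars1 was 0.62 to 1.25 (median 0.78) in mitochondria and 1.31 to 1.56 (median 1.39) in whole muscle. Cars2, Yars2 and Fars2 (set against Farsa) overlapped between groups, with mean differences of 0.67, 0.05 and -0.53. The sign for Fars2 depends on the cytosolic gene chosen. On the TMM scale Fars2 was at -0.98, Farsa at -0.46 and Farsb, the other cytosolic phenylalanine gene listed, at -1.87. No ratio to Farsb was computed. The prolyl pair, at 0.385 Pars2 counts per Eprs1 count in mitochondria and 0.0186 in whole muscle, thus moved farther than the cysteinyl pair. Much of this gap lay in the cytosolic genes, with log2 differences of -3.21 for Eprs1 and -0.07 for Cars1. Pars2 and Cars2 themselves rose by 1.15 and 0.57 on the TMM scale.

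The cytosolic synthetases themselves were lower in 19 of 20 cases (95%, against 57.2% of muscle-expressed genes), with 1 not past the test (median -2.16), while with total counts 7 were higher and 6 lower (median -0.06). Eprs1 (Eprs in the table) had 31.6 ± 6.26 CPM in mitochondria and 295 ± 25.8 CPM in whole muscle (SD, n = 6 each; log2 -3.21). Kars1 (Kars in the table) had 19.3 ± 2.71 CPM in mitochondria and 152 ± 15.2 CPM in whole muscle, and Qars1 had 17.7 ± 3.44 CPM in mitochondria and 150 ± 13.2 CPM in whole muscle, for lysine and glutamine. Sars1, for serine, was the lowest of the list (log2 -3.26), and Cars1 (Cars in the table), for cysteine, was the highest and did not pass (log2 -0.07 ± 0.12, adjusted p = 0.549).

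Among other genes of RNA modification and ribosome assembly in mitochondria, 19 of 30 tested were lower, 4 were higher and 7 did not pass (median -0.87), while with total counts 28 were higher and 1 lower (median 1.23). The share lower, 63.3%, and the median were near those of muscle-expressed genes, 57.2% and -0.69. Grsf1, an RNA granule protein, was the lowest, with 11.3 ± 1.72 CPM in mitochondria and 130 ± 21.6 CPM in whole muscle (log2 -3.51 ± 0.14, adjusted p = 1.69e-20). The helicase Dhx30 had 34.01 ± 4.09 CPM in mitochondria and 73.9 ± 5.13 CPM in whole muscle, and the RNA methyltransferase Nsun2 had 27.3 ± 4.56 CPM in mitochondria and 58.0 ± 5.67 CPM in whole muscle. The highest was 1 of the 2 rows named Nsun4 (ENSRNOG00000046192), a methyltransferase of mitochondrial ribosomal RNA, with 7.60 ± 1.73 CPM in mitochondria and 0.771 ± 0.282 CPM in whole muscle (log2 3.31 ± 0.27, adjusted p = 6.49e-13). The other row of that name had a log2 difference of 0.61 and did not pass (adjusted p = 0.17), so the reading of Nsun4 depends on the row, and the 3 further genes that rose were Nsun3 (1.72), Trmt5 (0.62) and Trmu (0.37), which modify mitochondrial tRNAs.

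Of 11 other genes of RNA turnover and tRNA ends, 9 were lower (81.8%, against 57.2% of muscle-expressed genes), 1 was higher and 1 did not pass (median -1.54). With total counts 6 were higher and 3 lower (median 0.56), against 84.3% higher and 9.03% lower of all genes. Endog, a nuclease of the intermembrane space, was the lowest, with 5.97 ± 2.32 CPM in mitochondria and 74.7 ± 5.76 CPM in whole muscle (log2 -3.62). Mtres1 had 7.96 ± 1.51 CPM in mitochondria and 69.2 ± 9.94 CPM in whole muscle, and Ptcd3, a pentatricopeptide repeat protein of the mitochondrial ribosome, had 22.4 ± 5.18 CPM in mitochondria and 84.1 ± 5.76 CPM in whole muscle. Thg1l, which adds a guanine to the end of histidine tRNA, was the 1 gene that rose, with 12.5 ± 1.63 CPM in mitochondria and 3.89 ± 0.399 CPM in whole muscle (log2 1.69 ± 0.17, adjusted p = 8.39e-11).

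Of 10 other translation factors tested, 9 were lower (90%, against 57.2% of muscle-expressed genes) and 1 did not pass (median -1.76). With total counts 4 were higher and 3 lower (median 0.35), against 84.3% higher and 9.03% lower of all genes. Oxa1l, which inserts new proteins into the inner membrane, was the lowest, with 12.3 ± 2.23 CPM in mitochondria and 118 ± 11.5 CPM in whole muscle (log2 -3.27). Gatc, a subunit of the enzyme that makes glutaminyl-tRNA in mitochondria, had 6.29 ± 1.77 CPM in mitochondria and 52.0 ± 4.92 CPM in whole muscle, and Guf1, a translation GTPase, had 14.4 ± 1.81 CPM in mitochondria and 48.6 ± 6.496 CPM in whole muscle. Mtfmt, which formylates the initiator tRNA, was the highest and did not pass (log2 -0.09 ± 0.16, adjusted p = 0.582).

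Counts of single genes were low in mitochondria, at 5 to 114 per library for the tested members, against 55 to 5599 in whole muscle. On the TMM scale, 1115 olfactory receptor genes (998 without a count in whole muscle) summed to 4179 to 4551 CPM in mitochondria. The lowest member means there were 3.16 CPM for Hsd17b10, 4.43 for Mtrf1l, 5.85 for Yars2 and 6.28 for Tsfm. Spread over its 1115 genes, the olfactory receptor sum averages a few CPM per gene. The mean of Hsd17b10 did not exceed that average, and that of Mtrf1l was close to it. No such background was subtracted, and its part in the member levels was not tested. The coefficient of variation between libraries had a median of 18.5% over the genes in mitochondria, of which counting alone gives 17.3%, and of 11.8% in whole muscle, of which counting gives 5.34%. In the RefSeq annotation, 21 of the 38 genes overlap another gene and 12 overlap a protein-coding one, among them Slirp (Alkbh1 and Snw1), Gfm1 (Lxn), Mtif3 (Gtf3a), Prorp (Ppp2r3c), Elac2 (Arhgap44), Tsfm (Avil and Eef1akmt3), Fastkd2 (Mdh1b) and Fastkd3 (Mtrr). No source used here says whether counting used strand, so reads of such neighbours cannot be told apart for these genes. Hsd17b10, Tufm, Fastk, Pars2 and Wars2 overlap no other annotated gene.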

How the data were processed

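RNA of isolated mitochondria (6 libraries) and of whole muscle (6 libraries) of the same 6 rats was sequenced. The authors deposited raw counts per gene, which were used as deposited. Per the submitters' processing notes, the tools were FastQC 0.74, cutadapt 4.6, STAR 2.7.11a and HTSeq on mRatBN7.2. Not given in the sources used here are how strand and reads with several matches were handled and which annotation release served. Members and related lists were chosen with earlier results of these data known.

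Genes were filtered with filterByExpr (minimum count 10), scaled by TMM and tested with edgeR 4.0.16 in R 4.3.3 (quasi-likelihood test, group only, all 12 libraries), with Benjamini-Hochberg adjustment over 24679 genes and a threshold of 0.05. SE is the absolute log2 difference over the square root of F. Ratios used counts plus 0.5. Described in full were, per role, the 3 genes highest in whole muscle and the highest and lowest log2 difference; Wars2, Cars2 and the remaining members of each role were added so that every member is accounted for. The planned relation of level to protein length was not run, since no protein lengths were at hand. Ngrn of the related lists had no counts, and Trmt61b and Trmt2b had no row under those names.

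Animal numbers in the labels pair the libraries. Deviations of same-animal libraries correlated at -0.00745 to 0.0214. In 2 of 6 animals the mitochondria library correlated best with the whole muscle library of the same animal. The counts of animals given above therefore rest on the labels alone. No 2 libraries held identical counts. Library totals ranged from 720111 to 32055355 counts. On simulated data for 12418 genes, edgeR recovered 87% of log2 changes of 1 and 100% of changes of 2. The simulation drew both groups from the whole muscle profile. It therefore lacks the difference in composition between the real groups and cannot show whether the scaling of the real libraries is right. Alternatives were RLE size factors, total counts, nuclear genes alone, mitochondrial genome counts as library size, DESeq2 1.42.0, no filter, counts thinned to 573903 nuclear counts per library, an animal block, and each library left out. Motifs were searched in RefSeq promoters (GRCr8), cut to 250 bases upstream; Gfm1, Gfm2 and Trmt10c had no entry.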

Additional observations from a re-analysis of the deposited data

Results flagged for a closer look

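In 3 of 74 groups of 6 libraries, 1 library lay far from the other 5 by Dixon's ratio of the gap to the range (critical value 0.625); chance flags about 1 in 20 groups. The level of Mtrf1 was 13.5 TMM-scaled CPM in mitochondria replicate 3, against 9.87 in the next highest mitochondria library. In whole muscle the same gene reached 29.7 TMM-scaled CPM in replicate 2, against 27.1 in the next highest library. For Aars2, mitochondria replicate 2 was low, at 20.03 TMM-scaled CPM, against 26.3 in the next lowest mitochondria library. Both genes kept their direction and their side of the threshold when any 1 library was left out.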

How the results depend on the processing

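The number of members called in each direction depended on the scaling. Against 3 higher and 26 lower as reported, 7 were higher with RLE size factors and 7 with DESeq2 (23 lower in both), 26 were higher and 5 lower with total counts, 21 were higher and 2 lower with mitochondrial genome counts as library size, and 12 were higher and 14 lower of 34 tested with counts thinned to equal nuclear depth (58.7% higher and 27.8% lower over all 14987 genes tested). The median of the members relative to all genes tested was -3.56 as reported, -4.64 without the filter on low counts (38 tested) and -1.21 after thinning; both alternatives change which genes are tested. Leaving out 1 library gave 3 higher, 26 to 27 lower and -3.62 to -3.51 for the relative median. With the replicate block that pairs libraries of the same animal, 26 were lower and 3 higher, the relative median was -3.58 and no call changed. Testing nuclear genes alone also changed no call.

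Over all settings 5 genes were lower in each (Hsd17b10, Tufm, Gfm1, Lrpprc and Fastk) and 5 higher in each (Pars2, Wars2, Cars2, Vars2 and Rars2), while 27 took both signs; with mitochondrial genome counts Gfm1 (-0.996, adjusted p = 0.0573), Lrpprc (-0.93, adjusted p = 0.0718) and Fastk (-0.70, adjusted p = 0.187) no longer passed. With both RLE size factors and DESeq2 the calls for Slirp, Elac2 and Mars2 were lost and Vars2, Rars2, Ears2 and Mtif3 passed as higher. Pnpt1 lost its call with total counts, and Mtpap, Trmt10c and Fars2 lost theirs after thinning. Prorp passed as lower without the filter (-0.34), without whole muscle replicate 4 (-0.33) and without mitochondria replicate 1 (-0.36), and Sars2 without the filter (-0.32), without whole muscle replicate 2 (-0.32) and without whole muscle replicate 3 (-0.299). The log2 differences that changed sign were as follows. With DESeq2 these were Prorp 0.083, Sars2 0.11, Fastkd1 0.13, Fastkd3 0.17 and Mtif3 0.29. With RLE size factors these were Prorp 0.088, Sars2 0.11, Fastkd1 0.13, Fastkd3 0.17 and Mtif3 0.29. With total counts these were Tbrg4 0.16, Iars2 0.19, Mtif2 0.20, Hars2 0.21, Tsfm 0.24, Supv3l1 0.39, Gfm2 0.54, Mtrf1 0.60, Mtrf1l 0.73, Trmt10c 0.76, Fastkd2 0.96, Mtpap 0.97, Aars2 1.07, Yars2 1.08, Fars2 1.11, Nars2 1.22, Mars2 1.44, Lars2 1.45, Slirp 1.54, Elac2 1.58, Prorp 1.84, Sars2 1.85, Fastkd1 1.86, Fastkd3 1.88 and Mtif3 2.02. With mitochondrial genome counts these were Pnpt1 0.25, Tbrg4 0.38, Mtif2 0.43, Tsfm 0.47, Hars2 0.57, Iars2 0.57, Supv3l1 0.69, Mtrf1l 0.88, Gfm2 0.91, Trmt10c 1.01, Mtrf1 1.08, Yars2 1.25, Mtpap 1.27, Fastkd2 1.27, Fars2 1.38, Aars2 1.48, Nars2 1.55, Mars2 1.84, Slirp 1.84, Lars2 1.87, Elac2 2.00, Fastkd3 2.12, Fastkd1 2.13, Sars2 2.20, Prorp 2.26 and Mtif3 2.32. After thinning these were Aars2 0.027, Fastkd2 0.12, Lars2 0.26, Nars2 0.30, Prorp 0.35, Elac2 0.62, Mars2 0.65, Fastkd1 0.67, Mtif3 0.78, Sars2 0.78 and Fastkd3 1.11. Without the filter Ears2 was at -0.000103, and it was at -0.014 without mitochondria replicate 1. The scaling itself sets these signs for total counts; for thinned counts the cause was not tested. Depth limits the mitochondria libraries most, where a member had as few as 5 counts; intervals from counts cover counting error only.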
